A study of Mus musculus with 144 samples.

Results

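The active neural stem cells of this series were the 58 single cells whose stage label was aNSC, among 131 single cells and 144 libraries in all. The other single cells were 59 labelled qNSC and 14 labelled as filtered out, and 13 further libraries were bulk pools of 500 cells. All were from the subventricular zone of mice, isolated by flow cytometry for expression of the nuclear receptor Tlx (gene Nr2e1). The labels gave no genotype, strain, sex, treatment or number of animals, and did not say how a cell was assigned its stage, so the gene levels below describe cells already chosen by that label. The aNSC cells were 32 from 5-week, 16 from 7-week and 10 from 7-month animals. Each age had its own title series with 3 title sets. A3 held 8, 13 and 11 aNSC cells at 5 weeks, A2 held 7, 5 and 4 at 7 weeks, and A1 held 2, 4 and 4 at 7 months. Age and title series therefore cannot be told apart. Cells of 1 set may share a source that the labels do not name, and were not taken as replicates of an age. Ages were therefore compared by title-set means and without a test.

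Neural stem cells of the subventricular zone line the lateral ventricles and give rise to neuroblasts that migrate to the olfactory bulb. Most rest as astrocyte-like cells. Those that are active pass into the cell cycle through D-type cyclins with Cdk4 or Cdk6, copy their DNA with the Mcm helicase, Pcna and ribonucleotide reductase, and divide with the cyclin B, kinetochore and Aurora kinase machinery. Their progeny take up Dlx factors, and later the cytoskeletal proteins Dcx and Tubb3 of migrating neuroblasts. Notch signalling, with ligands such as Jag1, is known for keeping stem cells undifferentiated.

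Levels are given in TPM, the share of transcripts normalised to length and library, and a gene counted as seen in a cell at 1 TPM or more. A cell had between 1621 and 3842 genes seen, with a median of 2752. Mitochondrial transcripts made up 2.22% to 14.9% of a cell's total. TPM values keep no read number, so the depth of a cell is unknown. The correlation of log2 values between cells was at most 0.575, and no pair of libraries was near identical. Of the 58 cells, 2 of set A1_3 had the myelin gene Mbp at 6813 and 3973 TPM, followed by cells at 272 TPM (A1_3) and 180 TPM (A3_3). Those 2 cells are described apart at the end, and every value until then is over the other 56, of which 8 were from 7 months. In the 56 cells most markers of other lineages were rare. Seen in no cell were 6 of 7 oligodendrocyte precursor, 11 of 13 microglial, 10 of 11 endothelial and mural, 7 of 10 ependymal and 8 of 16 oligodendrocyte genes. The mean log2(TPM + 1) over each list had a median of 0 for the former 4 and 0.037 for the oligodendrocyte list. Of 10 mature neuron genes, 5 were seen in no cell and 1 in at least 14 cells. That list had a median of 0.044 and reached 1.51 in the highest cell.

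The 6 genes that mark the active state were unevenly spread over the 56 cells. Stmn1, which destabilises microtubules, was seen in all 56, at 46.8 TPM in the lowest cell, 8307 in the median cell and 24170 in the highest. Cdk4, the kinase partner of D cyclins, was seen in 55 cells, at 0.59, 1670 and 7086 TPM in the lowest, median and highest cell. Ccnd2, cyclin D2, was seen in 55 cells, at 0.26, 933 and 3873 TPM. These 3 were thus near universal. The other 3 were not. Pcna, the sliding clamp of DNA replication, was seen in 44 cells (78.6%, exact 95% binomial interval 65.6% to 88.4%) and ran from 0 through a median of 944 to 4024 TPM. Top2a, the topoisomerase that untangles chromosomes in mitosis, was seen in 35 cells (62.5%, 48.5% to 75.1%), with a median of 78.0 and a highest value of 1959 TPM. Dlx1, a homeobox factor of the interneuron lineage, was seen in 34 cells (60.7%, 46.8% to 73.5%), with a median of 51.7 and a highest value of 790 TPM. All such intervals cover counting error over cells only. At a stricter level of 10 TPM the numbers were 56, 54, 54, 41, 32 and 33 cells, so few of these detections were at the margin.

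**Figure D1:**
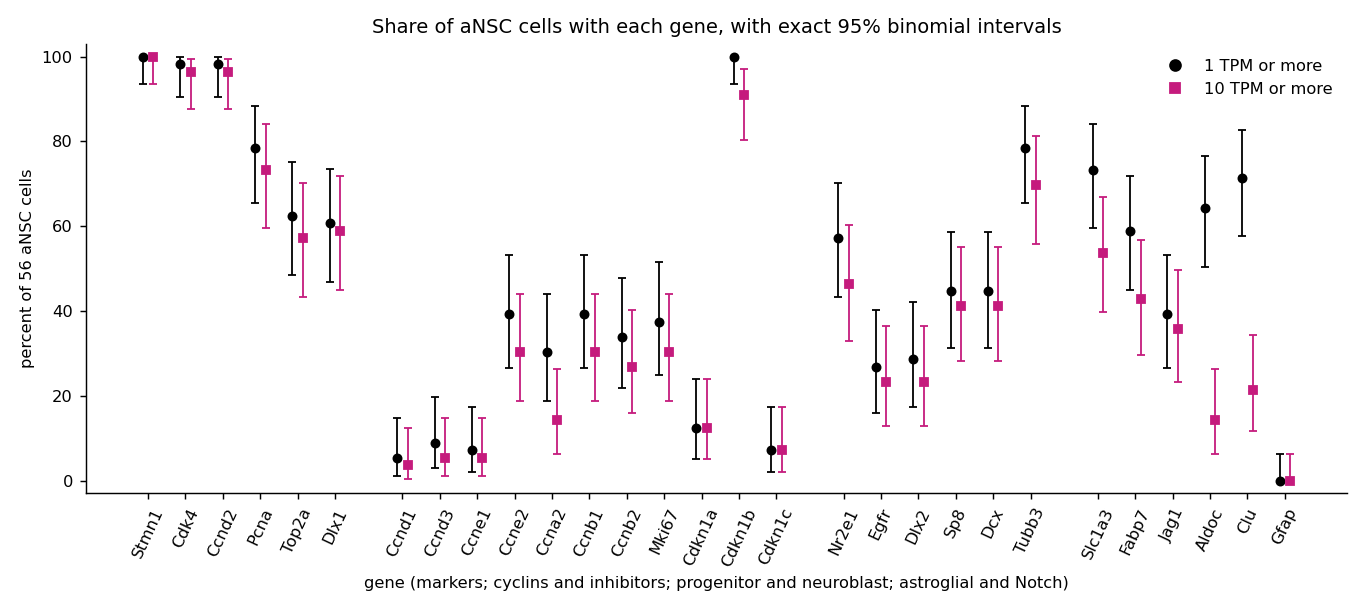
Share of the 56 aNSC cells (y axis, percent) with each of 29 genes (x axis), at 1 TPM or more (black circles) and at 10 TPM or more (magenta squares), with exact 95% binomial intervals as bars. Stmn1, Cdk4, Ccnd2 and Cdkn1b sit near 100%, Ccnd1 and Ccne1 under 10%, and Aldoc and Clu drop from 64.3% and 71.4% at 1 TPM to 14.3% and 21.4% at 10 TPM.

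The most abundant transcripts were of ubiquitin, chromatin, cytoskeletal and ribosomal genes. Ubb, a polyubiquitin gene, led with a median of 22555 TPM and a range of 4677 to 50254. The nucleosome-binding protein gene Hmgn2 had a median of 17790 TPM, the nuclear non-coding RNA Malat1 14620, prothymosin alpha (Ptma) 9579, Actb 9325, the histone variant gene H2afz 8144, the alpha tubulin gene Tuba1a 7315, thymosin beta 4 (Tmsb4x) 5504 and the chaperone gene Hspa8 4673. Also among the 20 highest medians, beside Stmn1, were Cbx3, Ftl1, Rps19, Rps14, H3f3b, Rpl41, Tubb5, Calm2 and Hnrnpk, at 2868 to 4173 TPM. Ubb, Hmgn2, Ptma, H2afz and the ribosomal protein genes have near-identical copies elsewhere in the genome, and how reads were shared among such copies is not given in the sources used here. Mitochondrial messages were as high, with mt-Atp6 at a median of 13939 and mt-Co3 at 12362 TPM. Of the 100 genes with the highest medians, 24 were cytosolic ribosomal protein genes. Even abundant genes were not even: Tuba1a fell to 1.53 TPM in 1 cell.

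Most other genes were seen in a minority of cells. Of 14148 genes seen in at least 1 cell, 97 were seen in all 56, 1664 in at least 28 and 2732 in 1 cell only. The 3741 genes seen in at least 14 cells were used for variation and co-variation. Their standard deviation (SD) over cells of log2(TPM + 1) had a median of 3.15.

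Among these genes, the 20 with the largest SD held several that act at fixed points of the cell cycle. Kpna2, an importin that carries mitotic factors, had the largest SD at 4.93, and was seen in 37 cells at up to 13182 TPM. Rrm2, the regulated subunit of ribonucleotide reductase, followed at 4.90, with 41 cells, a median of 796 and a highest value of 6158 TPM. Birc5 (survivin, of the chromosomal passenger complex) had an SD of 4.74 and was seen in 25 cells. The mitotic kinase gene Pbk had 4.71 (34 cells) and the Cdk-binding protein gene Cks2 4.67 (28 cells). Hat1, Tipin and Rfc3, which act on new histones and at the replication fork, had SDs of 4.57 to 4.62. Fabp7, the brain lipid-binding protein of radial glia, had 4.67 (33 cells, up to 7944 TPM), and Tubb3, the neuronal tubulin, 4.63 (44 cells, a median of 921 and up to 6765 TPM). The remaining 10 were Polr2d, Ppib, Cox7a2l, Nrep, Atp5g2, Abracl, Fdps, Ssna1, Mrps17 and Rpl36al, with SDs of 4.56 to 4.74. The SD of log values is largest for genes that are abundant in some cells and unseen in the rest, and 2 of the 20 were also among the 20 of highest coefficient of variation relative to its trend with the mean. Of the 100 genes of largest SD, 8 were of the G2/M list, 4 of the S phase list and 2 of the neuroblast list. Of all 3741 genes ranked, 50, 39 and 21 were of these lists, so most of the 100 were of none of them.

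Of the 15 G1 genes, Ccnd2, Cdk4 and Cdkn1b were seen in nearly all cells, and most of the others in few. Cyclin D2 was the D cyclin of these cells: Ccnd1 was seen in 3 and Ccnd3 in 5 of 56. Of the kinases, Cdk6 was seen in 40 cells (median 106, highest 1286 TPM) and Cdk2 in 25. Of the inhibitors, Cdkn1b (p27) was seen in all 56 cells at 1.48 to 473 TPM with a median of 90.5, whereas Cdkn1a (p21) was seen in 7, Cdkn1c (p57) in 4, Cdkn2c in 6, Cdkn2a in 1 and Cdkn2b in none. The retinoblastoma family genes Rb1, Rbl1 and Rbl2 were seen in 7, 9 and 6 cells. A cyclin of the E type, which starts DNA replication, was seen in 23 cells. Ccne2 accounted for 22 of them and Ccne1 for 4. A cyclin of the A or B type (Ccna2, Ccnb1 or Ccnb2), which act from S phase to mitosis, was seen in 34 cells, in 17, 22 and 19 cells by gene. Both kinds were seen in 14 cells and neither in 13. Those 13 cells had no E, A or B cyclin at 1 TPM, and no count of cycling cells follows from this, since a message can be missed.

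Genes of S phase and of G2/M formed programmes that cells carried to different extents. The mean of log2(TPM + 1) over a list was used as its level in a cell. The S phase list (49 genes) ran from 0.43 in the lowest cell through a median of 3.38 to 5.97 in the highest. The G2/M list (66 genes) ran from 0.17 through 2.03 to 7.43, and 28 cells had a level of 2 or more. The G2/M genes were the most tightly bound of the lists: the median Spearman rho over cells between a pair of them was 0.40, against 0.02 over all pairs of genes. For S phase pairs the median was 0.28, and for pairs across these lists 0.12. Cells may share a library preparation and differ in genes seen, and the S phase and G2/M levels rose with genes seen (rho of 0.61 and 0.54 over 56 cells). The levels of the S phase and G2/M lists correlated over the 56 cells at 0.51, and at 0.28 with genes seen held constant. High S phase levels thus occurred with both high and low G2/M levels.

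**Figure D2:**
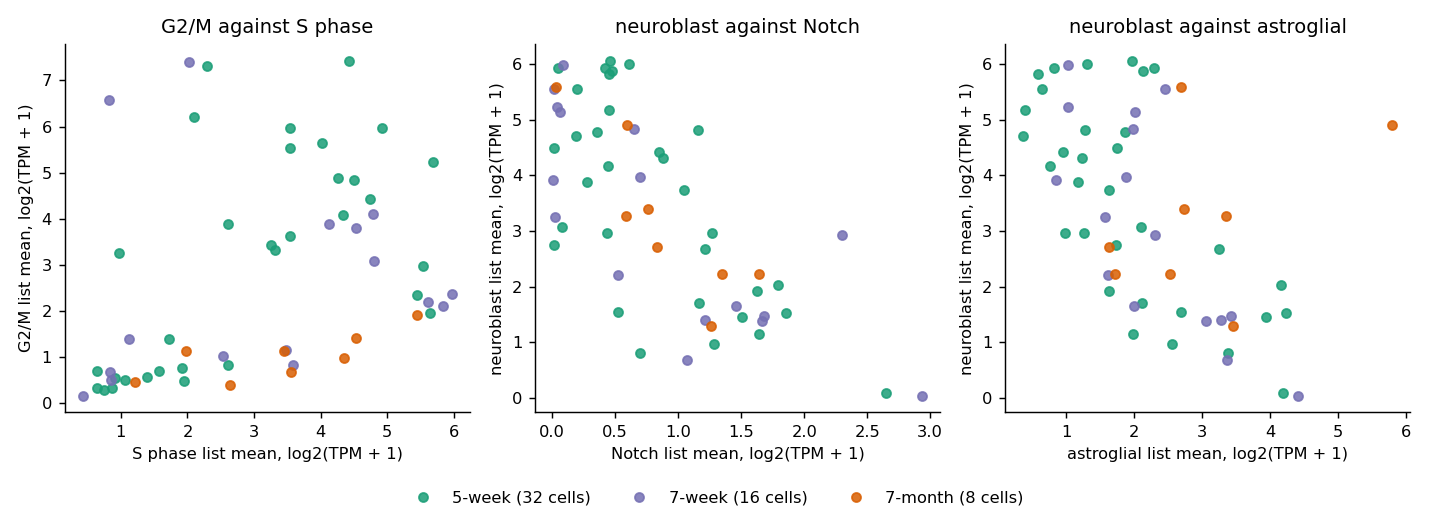
Levels of gene lists in the 56 aNSC cells, each point a cell coloured by age, all axes in mean log2(TPM + 1). Left, G2/M against S phase (rho 0.51); the 8 cells of 7 months reach 5.44 on the S phase axis and stay at or under 1.91 on the G2/M axis. Middle and right, the neuroblast list against the Notch list (rho -0.70) and the astroglial list (rho -0.57).

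The genes most like Top2a were of chromosome structure and mitosis: Hmgb2 (rho 0.78), Pbk (0.72), Birc5 (0.68), the kinetochore gene Spc25 (0.65), the cohesion gene Esco2 (0.62), Pimreg (0.59), the export receptor Xpo1 (0.59) and the condensin gene Ncapg (0.59). All 8 kept a rho of 0.51 or more with genes seen held constant. In single cells the overlap was broad but not complete. Mki67 was seen in 21 cells and Top2a in 20 of those, while 15 cells had Top2a without Mki67. The genes most like Pcna were of DNA replication and its control: Pclaf (0.64), Uhrf1 (0.57), Cdk2 (0.57), Rrm2 (0.56), Mcm6 (0.54), Clpp (0.54), Prim1 (0.51) and Rad54l (0.51). Clpp, a mitochondrial protease gene, is the exception. No gene followed Cdk4 above a rho of 0.52 or Ccnd2 above 0.47. These highest values were lower than those of Top2a and Stmn1, and the leading gene was Mrpl40 for Cdk4 and Iars for Ccnd2.

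The promoters of the G2/M and S phase list genes were searched for the elements through which cell cycle genes are known to be timed. These are the cell cycle homology region (CHR; TTTGAA or TTCGAA), the CCAAT box (CCAAT) and the E2F site (TTTGGCGC or TTTCCCGC), on either strand, in 300-base windows around the annotated start from RefSeq (GRCm38.p6; the expression table was built on mm9, and no coordinate was carried over). Of 66 G2/M genes 55 had a window, and of 49 S phase genes 40. A CHR was in 41 of the 55 G2/M windows (74.5%), in 7 of the 40 S phase windows (17.5%) and in 19.4% of the 27025 genes with a window. CCAAT was in 39 (70.9%), 24 (60.0%) and 37.9%. CHR and CCAAT occurred together in 36 G2/M windows (65.5%), 6 S phase windows (15%) and 7.70% of all. The E2F site was in 3 G2/M windows (5.45%), 10 S phase windows (25%) and 1.63% of all. A match describes the letters and is not a measured binding site. The windows of 4 G2/M genes, of the S phase gene Mcm6 and of Pclaf are printed to show how the elements sit, 5′ to 3′ along the gene. Pclaf was the gene most like Pcna but is not on the S phase list, so its window is not among the 40. Matches to any of the motifs on either strand are in capitals. Top2a (minus strand, chr11:99024140-99024439) held 4 CHR and 6 CCAAT matches; Cdca8 (minus, chr4:124936868-124937167) 1 and 4, of which a CHR and a CCAAT overlap; Spc25 (minus, chr2:69206164-69206463) 1 and 2; and Kpna2 (minus, chr11:106999476-106999775) 1 and 2. Pclaf (plus, chr9:65890073-65890372) held 1 E2F and 2 CCAAT matches and Mcm6 (minus, chr1:128359656-128359955) 2 and 2. The windows of Birc5, Pcna and Rrm2 held no CHR and no E2F match with these letters.
Top2a: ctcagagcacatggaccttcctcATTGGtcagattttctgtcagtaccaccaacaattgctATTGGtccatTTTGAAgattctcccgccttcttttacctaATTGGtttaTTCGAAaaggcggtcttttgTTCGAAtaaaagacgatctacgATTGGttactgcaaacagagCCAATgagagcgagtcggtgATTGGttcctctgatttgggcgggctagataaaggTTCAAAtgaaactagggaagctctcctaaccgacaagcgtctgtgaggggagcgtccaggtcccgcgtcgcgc
Cdca8: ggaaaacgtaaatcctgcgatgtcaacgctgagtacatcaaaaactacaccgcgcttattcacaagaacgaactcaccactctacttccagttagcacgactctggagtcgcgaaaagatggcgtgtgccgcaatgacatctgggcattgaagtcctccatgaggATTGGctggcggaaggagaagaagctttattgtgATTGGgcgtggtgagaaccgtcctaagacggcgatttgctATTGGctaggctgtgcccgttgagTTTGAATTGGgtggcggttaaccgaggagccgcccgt
Spc25: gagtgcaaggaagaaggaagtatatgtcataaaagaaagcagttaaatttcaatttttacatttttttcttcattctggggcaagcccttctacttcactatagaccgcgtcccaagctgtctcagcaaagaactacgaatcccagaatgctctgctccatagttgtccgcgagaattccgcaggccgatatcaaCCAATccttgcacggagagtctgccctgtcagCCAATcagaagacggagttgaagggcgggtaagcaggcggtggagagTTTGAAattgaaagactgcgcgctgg
Kpna2: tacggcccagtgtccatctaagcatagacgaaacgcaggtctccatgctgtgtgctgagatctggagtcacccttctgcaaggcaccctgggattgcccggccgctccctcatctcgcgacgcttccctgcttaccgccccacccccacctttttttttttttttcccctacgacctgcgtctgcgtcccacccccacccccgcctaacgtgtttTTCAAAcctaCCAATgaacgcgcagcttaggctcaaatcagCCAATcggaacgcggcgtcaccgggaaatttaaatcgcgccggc
Pclaf: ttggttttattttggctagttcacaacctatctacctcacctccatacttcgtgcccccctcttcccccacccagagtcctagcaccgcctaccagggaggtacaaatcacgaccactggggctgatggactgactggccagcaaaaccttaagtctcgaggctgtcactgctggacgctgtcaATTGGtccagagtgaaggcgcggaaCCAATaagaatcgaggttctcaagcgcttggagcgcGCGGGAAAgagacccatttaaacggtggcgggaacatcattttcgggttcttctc
Mcm6: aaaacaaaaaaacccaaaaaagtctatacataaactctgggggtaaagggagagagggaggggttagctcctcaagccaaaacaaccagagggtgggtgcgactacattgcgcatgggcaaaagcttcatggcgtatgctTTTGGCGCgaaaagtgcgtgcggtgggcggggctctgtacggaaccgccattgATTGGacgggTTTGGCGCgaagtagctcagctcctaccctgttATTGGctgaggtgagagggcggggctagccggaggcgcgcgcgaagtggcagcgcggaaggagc

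Another axis of variation ran from astroglial and some Notch genes to neuroblast genes, with members of the progenitor list at both ends. It was not wholly apart from the cell cycle lists, as the correlations and components below show. With the neuroblast level Dlx1 had a rho of 0.51 and Vim 0.47, and Egfr -0.50, Fabp7 -0.53 and Nr2e1 -0.55. Of the progenitor list, Nr2e1, the receptor for which the cells were sorted, was seen in 32 of 56 cells, Pax6 in 27, Vim in 22, Dlx2 in 16, Egfr in 15 and Sox2 in 14. Nes was seen in 4 cells, Olig2 and Gsx2 in 1 each, and Gsx1 in none. Where seen, Egfr, the growth factor receptor of activated cells, had a median of 54.3 TPM. Of the neuroblast list, the RNA-binding protein gene Elavl3 was seen in 50 cells, Ncam1 in 51, Sox4 and Dpysl3 in 46, Tubb3 in 44, Elavl4 and Map1b in 43, Cd24a in 33, Dlx5 in 30, Nrxn3 in 29, Meis2 in 28, Sp9 and Dlx6os1 in 27, Dclk2 in 26, Dcx and Sp8 in 25, Stmn2 in 23, Gad2 in 18, Gad1 in 16, Celf4 in 14, Igfbpl1 in 9, Dlx6 in 3, Neurod1 in 2 and Sox11 in 1. The level of this list ran from 0.04 through a median of 3.26 to 6.06, with a median pair rho of 0.32.

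Stmn1, though seen in every cell, tracked the neuroblast genes. Its closest genes were the thymosin gene Tmsb10 (rho 0.70), Tuba1a (0.66), Sp9 (0.65), Tubb3 (0.62), Dlx6os1 (0.62), Ncam1 (0.62), the actin-severing factor gene Dstn (0.59) and Dcx (0.59), and its lowest were Ckb (-0.62), Mif (-0.61) and Jag1 (-0.60). Dlx1 was nearest to Map1b (0.56), Dlx5 (0.54), Cd1d1 (0.53), Dlx1as (0.52), Casp2 (0.49), Stmn1 (0.48), Ncam1 (0.44) and Xab2 (0.44), and farthest from Dbi (-0.57), Rpl38 (-0.53) and Jag1 (-0.47). Dlx1as overlaps Dlx1 on the other strand, and without a stated use of strand the reads of this pair cannot be told apart. Top2a was not among the 8 genes nearest to Stmn1 or to Dlx1.

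**Figure D3:**
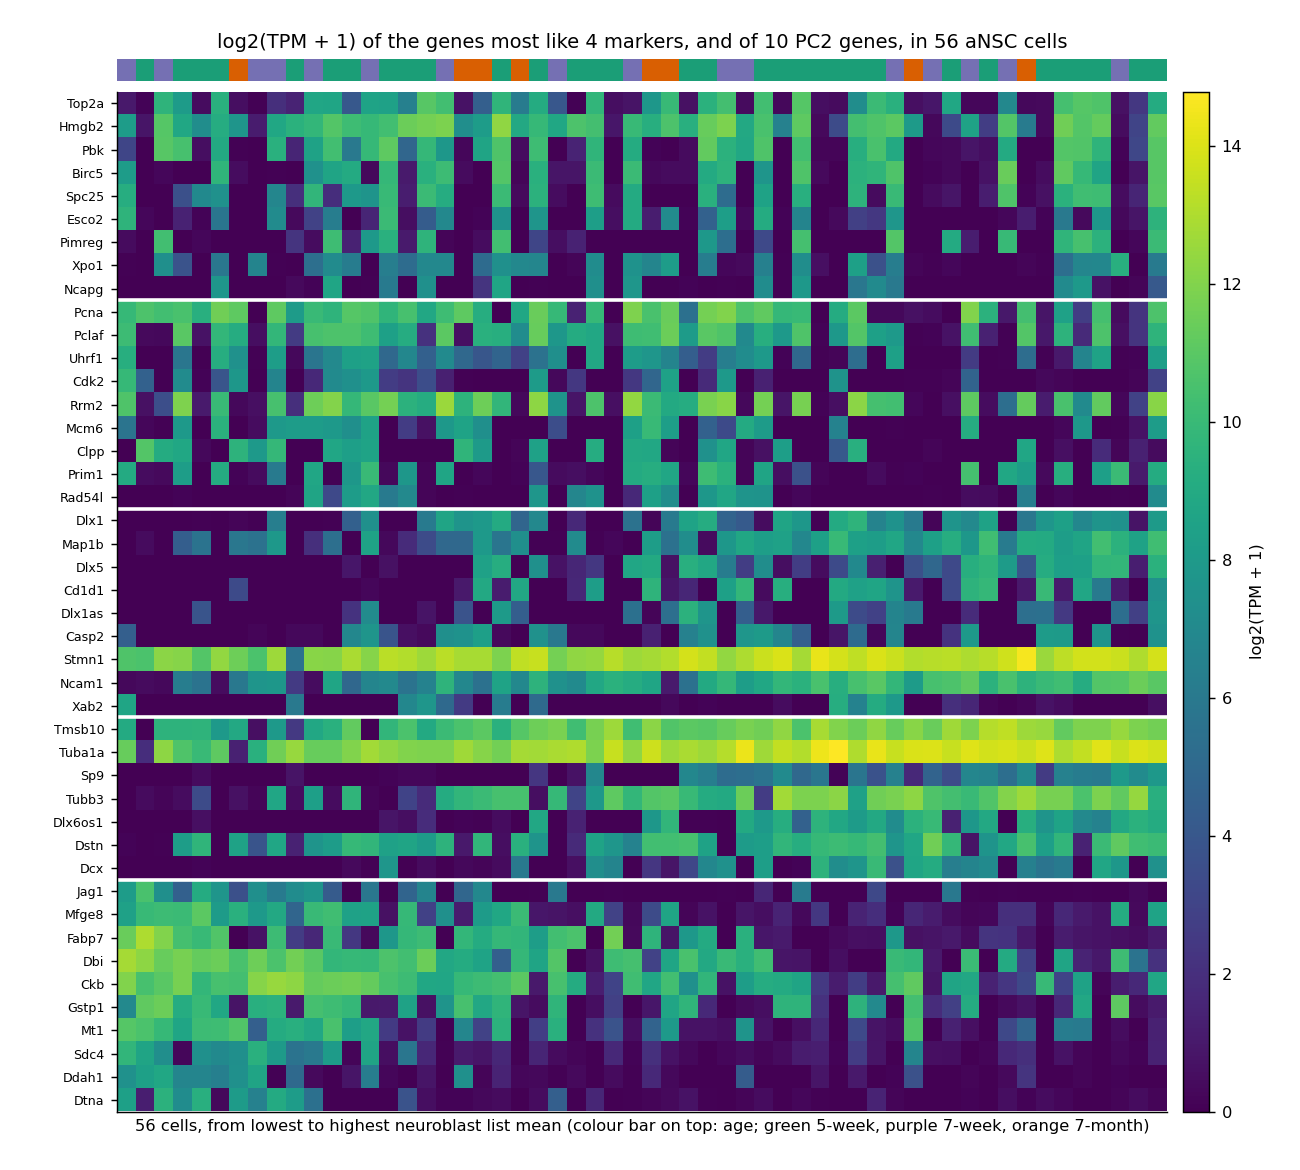
Level in log2(TPM + 1) (colour) of the genes most like Top2a, Pcna, Dlx1 and Stmn1 and of 10 genes of the low end of the second component (rows, in blocks) in the 56 aNSC cells (columns, ordered by neuroblast list level; bar on top, age). Neuroblast genes fill from left to right as Jag1, Sdc4, Ddah1 and Dtna empty, while the Top2a and Pcna blocks are lit in cells across the whole order.

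The neuroblast level opposed the Notch and astroglial levels. Its rho with the Notch list (13 genes, level 0.01 to 2.93 with a median of 0.67) was -0.70, and with the astroglial list (31 genes, level 0.37 to 5.79 with a median of 1.98) it was -0.57. Both were nearly the same with genes seen held constant (-0.69 and -0.56). The Notch list rested on few genes: Notch2 was seen in 25 cells, the ligand gene Jag1 in 22, Rbpj in 14, Notch1 in 13, Hes6 in 12, Dll1 in 8, Hes5 and Mfng in 7, Hes1 in 2, Lfng in 1, and Dll3, Hey1 and Notch3 in none. Of the 3 seen in at least 14 cells, Jag1 had a rho of -0.61 with the neuroblast level, Notch2 -0.50 and Rbpj 0.003. The median rho over the 3 pairs of these genes was 0.02, so they did not move together as a list. Jag1 and Dcx were seen together in 3 cells, Jag1 alone in 19, Dcx alone in 22 and neither in 12. Egfr was seen with Jag1 in 13 of its 15 cells and with Dcx in 2. By cells of an age, the neuroblast and Notch levels had a rho of -0.61 (5-week, 32 cells), -0.73 (7-week, 16) and -0.86 (7-month, 8). For the neuroblast and astroglial levels the values were -0.60, -0.68 and 0.21, so the opposition was not seen in the 8 cells of 7 months. Over all 56 cells the G2/M level had a rho of 0.05 with the neuroblast level and the S phase level -0.31. By the number that ends the title set, the rho of G2/M with neuroblast was 0.69 in sets 1 (17 cells), -0.12 in sets 2 (22 cells) and 0.015 in sets 3 (17 cells).

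The astroglial list needs its level of detection beside it. The cysteine protease inhibitor gene Cst3 was seen in all 56 cells, and Sox9 in 35, of which 34 had 10 TPM or more. By contrast Clu was seen in 40 cells but at 10 TPM or more in 12, and Aldoc in 36 and 8. Of all values of 1 TPM or more in this list, 40.9% were under 10 TPM, against 17% in the S phase list, 15.5% in the neuroblast list and 31.7% over all genes. Gfap, Hopx and S100b were seen in 0 of 56 cells, which allows a share of up to about 5.36%. This limit is 3 divided by the number of cells, an approximation and not the exact interval used for other shares.

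The first principal component of the 3741 genes (6.27% of variance) followed the cell cycle and the number of genes seen. Its rho was 0.84 with the S phase level, 0.69 with G2/M, 0.79 with genes seen and -0.39 with the neuroblast level. Its high end held Rrm2, Pbk, Mrpl42, Pclaf, Hmgb2, Slc25a5, Mcm3, Dctpp1, Lsm5 and Spc25, and its low end Stmn2, Tubb2b, Tiam2, Nrep, Pja1, Cd24a, Yif1a, Tubb3, S100a10 and Stc1. The second (4.09%) had a rho of 0.78 with the neuroblast level, 0.52 with G2/M, -0.58 with astroglial and -0.63 with Notch. Its high end held Sp8, Tubb3, Tiam2, Pfn2, Birc5, Nrep, Dlx6os1, Dlx5, Cks2 and Tacc3. Its low end held the metallothionein gene Mt1, the acyl-CoA-binding protein gene Dbi, Mfge8, Jag1, Sdc4, Ddah1, Fabp7, the creatine kinase gene Ckb, Dtna and Gstp1. Each component carried a small share of the variance.

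The neuroblast and Notch levels went with the number that ends the title set, whose meaning the labels do not give. The mean neuroblast level was 1.74, 3.69 and 4.66 in sets A3_1, A3_2 and A3_3, 2.0, 3.32 and 4.74 in A2_1 to A2_3, and 1.76, 3.62 and 3.81 in A1_1 to A1_3. The Notch level was 1.48, 0.73 and 0.43, then 1.37, 0.79 and 0.21, then 1.30, 0.75 and 0.71. The astroglial level fell with the number at 5 weeks (3.34, 1.59 and 1.27) and 7 weeks (2.82, 2.15 and 1.44) but was 2.58, 2.83 and 3.71 in A1_1 to A1_3. The sets numbered 1 were thus lowest for neuroblast genes and highest for Notch genes at all 3 ages. Dcx was seen in 1 of 17 cells of sets numbered 1 (5.88%, exact 95% interval 0.15% to 28.7%), 10 of 22 of sets numbered 2 and 14 of 17 of sets numbered 3 (82.4%, 56.6% to 96.2%). Jag1 was seen in 14, 6 and 2 of those cells, Egfr in 8, 5 and 2, and Nr2e1 in 14, 14 and 4. Pcna was seen in 15, 20 and 9, and Top2a in 11, 17 and 7. Of 3741 genes, 5.00% had their 3 set means numbered 3 all above those numbered 1, and 9.30% all below. Among the list genes tested, 8 of 21 neuroblast genes were higher and none lower, and 15 of 39 S phase genes were lower and none higher, beside 2 of 50 G2/M genes lower. These genes and this grouping were chosen after their values were seen.

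The level of gfp, a row that no label explains, fell with the same number in bulk pools but not in the aNSC cells of every age. In bulk pools of 5 weeks, gfp stood at 769 to 1506 TPM in the 3 pools of A3_1, 550 to 924 in those of A3_2 and 158 to 320 in those of A3_3. The pools of A2_2 and A2_3 had 540 and 138 TPM, and those of A1_1 and A1_2 1052 and 885. In aNSC cells gfp was seen in 10 of 17, 14 of 22 and 5 of 17 cells of sets numbered 1, 2 and 3. The aNSC mean was 198, 197 and 51.8 TPM in A3_1 to A3_3 and 277, 249 and 0.21 TPM in A2_1 to A2_3, whereas at 7 months it was 0.21, 87.3 and 302 TPM in A1_1 to A1_3 (2, 4 and 2 cells). With the title-set means taken off, the neuroblast level kept a rho of -0.46 with Notch and -0.36 with the astroglial level. Within sets numbered 1, 2 and 3 the neuroblast to Notch rho was -0.46, -0.63 and 0.01, and the neuroblast to astroglial rho -0.50, -0.47 and -0.00, so the opposition was not seen within the sets numbered 3.

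**Figure D4:**
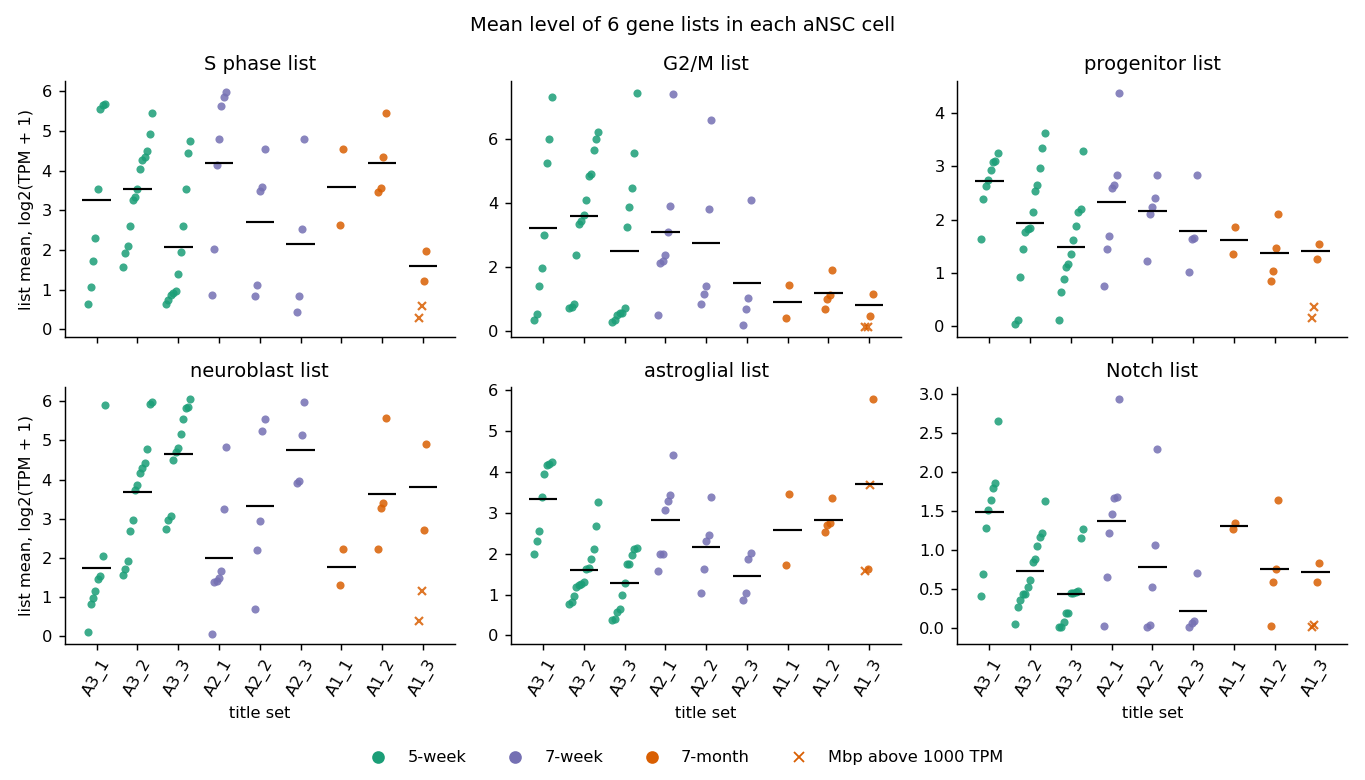
Level of 6 gene lists (y axes, mean log2(TPM + 1)) in each of the 58 aNSC cells by title set (x axis), coloured by age; black lines are means over cells with Mbp at or under 1000 TPM, and crosses the 2 cells above it. Neuroblast means are lowest and Notch means highest in sets numbered 1 at each age, and the 8 remaining cells of 7 months all have a G2/M level under 2.

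By age, G2/M genes were lower in the cells of 7 months than in those of the younger ages. The G2/M level in the 32 cells of 5 weeks was 0.28 in the lowest, 3.28 in the median and 7.43 in the highest. In the 16 cells of 7 weeks it was 0.17, 2.15 and 7.40. In the 8 cells of 7 months it was 0.39, 1.05 and 1.91. The set means at 7 months (0.91, 1.17 and 0.79) all lay below those at 7 weeks (3.08, 2.75 and 1.49) and 5 weeks (3.21, 3.59 and 2.49). Those at 7 months, here and gene by gene, rested on only 2, 4 and 2 cells. A cell had 2 to 60 of the 66 genes seen at 5 weeks (median 29), 2 to 59 at 7 weeks (median 20) and 4 to 19 at 7 months (median 9.5). Median genes seen overall were 2764, 2632 and 3004 at these ages. Over the 56 cells the G2/M level had a rho of 0.54 with genes seen, and the part of sequencing depth, which TPM does not keep, was not tested. The S phase level did not follow: it was 0.63, 2.93 and 5.68 at 5 weeks, 0.43, 3.53 and 5.97 at 7 weeks and 1.21, 3.50 and 5.44 at 7 months.

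Gene by gene, 320 of 3741 genes (8.55%) had all 3 set means of 7 months below all 3 of 5 weeks, and 284 (7.59%) had them above. Of 50 G2/M genes tested, 33 were lower and 1 higher, with a median difference in set means of -2.59 log2 units beside 0.01 over all genes. The filter of 14 cells passed 50 of the 66 list genes, and since most cells were young it favours genes high at 5 weeks. With every gene seen in at least 1 cell, 41 of 66 were lower (all genes 11.4%). That setting does not remove the bias, since 32 of the 56 cells were of 5 weeks and 8 of 7 months. Genes seen in no cell of 7 months enter it only through the younger cells. Among genes seen in at least 28 cells, 5 of 16 were lower (all genes 6.43%). G2/M genes move together within a cell, so these are not separate observations. Matched by set number, 41 of the 50 were lower at 7 months in all 3 pairs of sets (all genes 16.9%) and 1 was higher (14%). Against 7 weeks, 18 of 50 were lower (all genes 5.59%) and 1 higher (5.99%). The comparisons share the 7-month cells.

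The 4 G2/M genes of largest difference were at or near 0 in the 8 cells of 7 months. Cdca8 (borealin, of the chromosomal passenger complex) had a lowest, median and highest value of 0, 124 and 2070 TPM at 5 weeks, 0, 0.49 and 1607 at 7 weeks, and 0, 0 and 0.22 at 7 months. Spc25 was at 0, 70.0 and 2060 TPM, then 0, 73.7 and 1706, then 0, 0 and 0.31. Birc5 was at 0, 301 and 2276 TPM, then 0, 0.54 and 2740, then 0, 0.21 and 0.38. In each gene the ages overlap at 0, and no cell of 7 months lay among the high values. Mad2l1, of the spindle checkpoint, was seen in 19 of 32, 5 of 16 and 0 of 8 cells, and its set means fell from 4.76 to 0.09 log2 units on average. Ccnb1 was seen in 16, 6 and 0 cells and Mki67 in 17, 4 and 0. A count of 0 of 8 allows a share of up to about 37.5%, by the same approximation of 3 divided by the number of cells. In all, 27 of the 66 G2/M genes were in no cell of 7 months, beside 5 of 49 S phase, 3 of 25 neuroblast and 6 of 31 astroglial genes. For the G1, progenitor and Notch lists the counts were 8 of 15, 6 of 13 and 5 of 13. Absence from these 8 cells was thus not particular to G2/M genes, and its share over all genes was not taken. Top2a was still seen in 4 of 8 cells, Cdk4 and Ccnd2 in 8 of 8 and Pcna in 7 of 8.

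**Figure D5:**
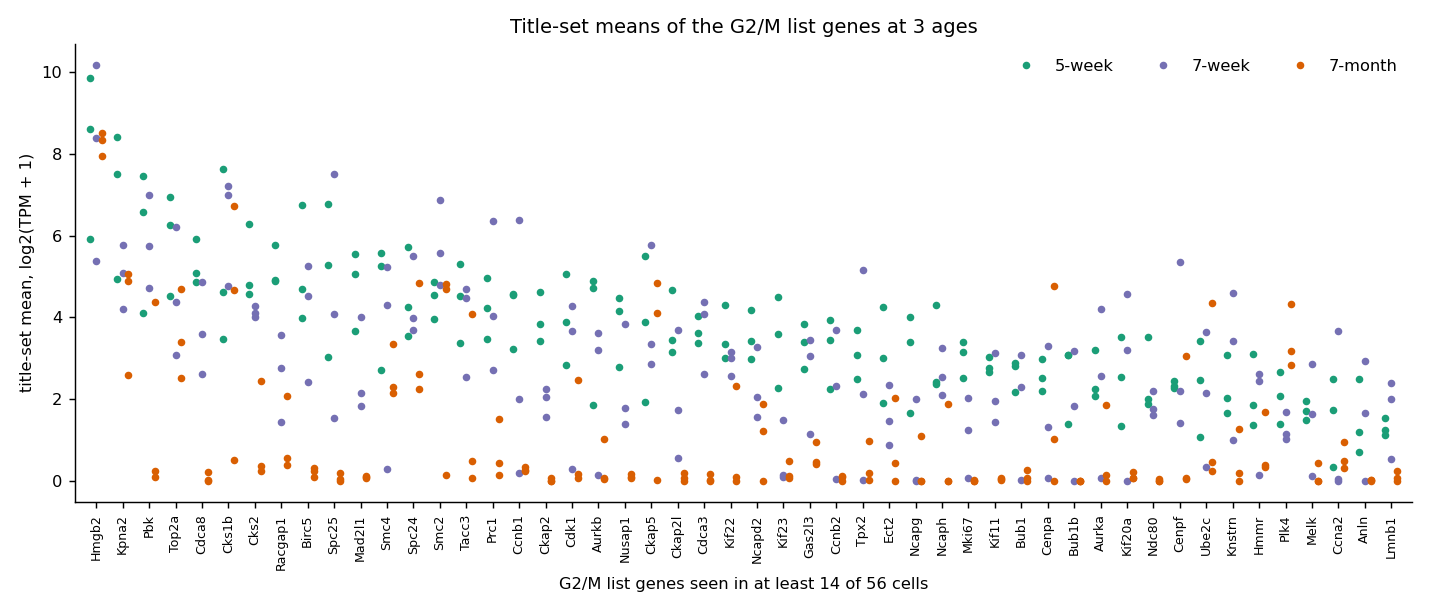
Title-set means in log2(TPM + 1) (y axis) of the 50 G2/M list genes seen in at least 14 of 56 cells (x axis, ordered by their 5-week mean), 3 sets an age, in green for 5 weeks, purple for 7 weeks and orange for 7 months. Most orange points lie near 0, and for 33 genes all 3 lie below the 3 green points. The filter of 14 cells favours genes high at 5 weeks.

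Between 7 months and 5 weeks, other lists had smaller shares of separated genes. Of 76 ribosomal protein genes, 24 were higher at 7 months than at 5 weeks and 2 lower, with a median difference of 0.79. With the 2 Mbp-high cells put back, 3 of 76 were higher. Fewer of all genes were higher in that setting too, so the 7.59% below does not apply to counts with those cells put back. The gene with the largest rise among list members was Rps2 (set means 2.62 to 5.16 at 5 weeks and 7.40 to 9.69 at 7 months), a gene with many near-identical copies, so its value is uncertain. Of 72 genes of oxidative phosphorylation 15 were higher and none lower, and 8 with the 2 cells put back. Of 21 neuroblast genes 1 was higher and 1 lower, of 39 S phase genes 2 and 1, and of 20 astroglial genes 2 and none. Over all genes 7.59% were higher and 8.55% lower, so these last 3 lists stood near or below the background. Between 7 and 5 weeks, 3.93% of all genes were higher and 6.23% lower, and 5 of 50 G2/M genes were lower and none higher. The list members of largest difference were Rpl35a (-3.38), the primase gene Prim1 (2.88), the mitotic kinesin gene Kif23 (-2.88), the ribosome biogenesis gene Pes1 (-2.67) and the cytokinesis gene Racgap1 (-2.60). Markers of oligodendrocytes differed by age as well: the mean log2(TPM + 1) over that list had a median of 0.03 at 5 weeks (0 to 1.08), 0.01 at 7 weeks (0 to 0.50) and 0.48 at 7 months (0.01 to 1.64), and its part in these differences was not tested.

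The 2 cells with Mbp above 1000 TPM carried the aNSC label but had a different make-up. The myelin gene Mal stood at 3191 and 1523 TPM, Mog at 2644 and 747, Cnp at 2111 and 1127 and Cldn11 at 1967 and 994. Mag, also a myelin gene, was at 0.06 and 44.1 TPM, and so unseen in the former cell. Of the 16 oligodendrocyte list genes, 15 and 16 were seen. The oligodendrocyte list had levels of 10.4 and 10.3, whereas the highest of the other 56 cells was 1.64. Of the genes that mark the active state, Stmn1 was at 2764 and 2043 TPM, Cdk4 at 5.79 and 0.76, Ccnd2 at 4.22 and 0.24, Pcna at 854 and 0.63, Top2a at 0.22 and 0 and Dlx1 at 0.11 and 2.21. Their S phase levels were 0.58 and 0.29 and their G2/M levels 0.12 and 0.11, both G2/M levels below the lowest of the 56. They had 2410 and 1621 genes seen. In these 2 cells the data go against the stage label.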

How the data were processed

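Single-cell cDNA was amplified with a SMARTer kit, sheared and made into libraries with an NEBNext kit, per the labels' protocols. The deposited table holds TPM for 37621 gene rows, and RSEM 1.2.15 and mouse build mm9 are named in the submitters' processing notes; filters, gene annotation and use of strand are not given in the sources used here. The columns of the 58 cells summed to 876477 to 999999 TPM, so some features were left out before deposit. TPM keeps no read depth, and no interval for a level can be given. Symbols were matched for 32897 rows, and 4723 rows had none.

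From the deposited TPM values, shares of cells at 1 TPM, log2(TPM + 1), list means, SD, Spearman rho and principal components were computed in Python 3.11.15 (numpy 2.4.6, pandas 2.3.3, scipy 1.17.1), and figures drawn with matplotlib 3.10.9. Genes seen in at least 14 of 56 cells entered SD, rho, components and age counts. A gene was called separated between ages where the 3 title-set means of an age all lay above, or all below, those of the other. The labels name no animal, so no p-value is given. The scripts were tested on simulated data. Of 19 gene lists, 17 were written by hand and 2 (ribosomal protein and oxidative phosphorylation) follow gene symbols; 1 list member had no row. The members and lists were chosen with earlier results of these data known.

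Genes named in the text are the 20 of highest median, the 20 of largest SD, the 10 at each end of both components, the 8 nearest to each of the 6 markers and the 3 farthest, all members of the G1, progenitor, neuroblast and Notch lists, and the 5 list members of largest separated difference per age comparison; predicted genes and rows without a symbol are not named, and a few genes that the rule would name are not reported here. Exceptions, chosen after their values were seen, are the genes given by title-set number, pairs seen together, the low-level genes, and Ccnb1, Mki67 and the genes of the 2 cells set apart. Alternatives were 10 TPM, a pseudocount of 0.1, all 58 cells, columns rescaled without mitochondrial rows, cells with few genes left out, title sets left out in turn, other filters, partial and Pearson correlations and, added after seeing the data, cells with Mbp above 100 TPM left out and values within title-set numbers.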

Additional observations from a re-analysis of the deposited data

Results flagged for a closer look

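Among the 10 aNSC cells of 7 months, 3 of 21 measures had a highest cell whose gap to the next was large for a group of that size. Such a gap has a rate of about 1 group in 20 only for independent values with a normal distribution. The microglial and the endothelial and mural levels were near 0 in most cells, so that rate does not hold for them. A cell of set A1_3 had an astroglial list level of 5.79, and the next cell, of the 2 set apart for Mbp, 3.68. The former was among the 56 and had Mbp at 272 TPM, the next value after the 2 cells set apart. It had Aldoc at 1720, Clu at 1666 and Slc1a3 at 581 TPM together with Dcx at 411, Cdk4 at 1475 and Ccnd2 at 1097 TPM, and 3450 genes seen. It was the only cell of the 56 with both a neuroblast level of 4 or more (22 cells) and an astroglial level of 3 or more (14 cells). Whether it held RNA of more than 1 cell was not tested. The microglial list had a highest level of 0.767 in 1 cell, with the next, of the 2 set apart, at 0.348. The endothelial and mural list had its highest level, 0.106, in the A1_3 cell with the high astroglial level, with the next cell at 0.0172.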

How the results depend on the processing

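Over all alternatives, of the values that answer a comparison 319 stayed within the spread between cells or series (counts within 1.5 times), 79 moved and 5 reversed. The spread was 1 SD over cells for a list median and the SD over the 3 title series for a rho. Such limits are wide: for G2/M the SD was 2.19 beside a median of 2.03. The number that stayed is therefore no measure of how firm the values are. With a pseudocount of 0.1 the list medians fell to 0.57 (G1), -0.39 (progenitor), 0.44 (astroglial) and -2.03 (Notch), 10 of the 20 most variable genes remained among the 20 and their median SD was 5.84; by coefficient of variation relative to its trend, 2 remained. With genes seen held constant, rho was 0.28 for S phase with G2/M and 0.66 for G2/M with chromatin genes (0.66 by Pearson, 0.60 within series A1). Within series A1 (8 cells), S phase with chromatin was 0.45, neuroblast with astroglial 0.21, with Notch -0.86, with S phase 0.071, with G2/M 0.21 and with ribosomal proteins -0.71, and astroglial with Notch -0.40. In all 58 cells, neuroblast with Notch was -0.56 and with ribosomal proteins -0.41. Without the cells with fewest genes, neuroblast with G2/M was 0.19.

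Within sets numbered 1, 2 and 3 (chosen after seeing the data), S phase with G2/M was 0.35, 0.19 and 0.80, and neuroblast with ribosomal proteins -0.083, -0.70 and -0.27. Neuroblast with Notch was -0.46 in sets 1 and 0.012 in sets 3, neuroblast with G2/M 0.69 in sets 1 and -0.12 in sets 2, neuroblast with S phase 0.029 in sets 1, and neuroblast with astroglial -0.0025 in sets 3. In sets 2, chromatin genes had 0.45 with S phase and 0.38 with G2/M. With title-set means taken off, neuroblast with Notch was -0.46 and with ribosomal proteins -0.43.

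For 7 months against 5 weeks, genes with separated set means numbered 473 higher and 1616 lower with no filter, 160 and 107 among genes seen in 28 cells, 104 and 528 on the log2 of mean TPM, and 171 higher in all 58 cells. For 7 weeks against 5 weeks they numbered 385 and 966 with no filter and 71 and 89 among genes seen in 28 cells. For 7 months against 7 weeks they numbered 480 and 769, 116 and 73, and 129 and 318 on the log2 of mean TPM. Leaving out title sets in turn, which loosens the rule, gave 354 to 610 higher and 406 to 745 lower, 222 to 392 and 344 to 627, and 341 to 535 and 316 to 549 for these comparisons. The G2/M genes lower at 7 months than at 5 weeks numbered 34 to 40 of 50 under that, 35 in all 58 cells, 35 of 49 without the cells with Mbp above 100 TPM, and 5 of 16 among genes seen in 28 cells. For all 58 cells and for the cut at 100 TPM, the share of all genes lower is not given here. Those counts therefore stand without a background. The cause of these shifts was not tested. No paired analysis was possible because no result comes from a test and the labels do not say what a shared set number marks; the counts matched by set number are descriptions. Since TPM keeps no depth, a gene unseen in a cell may have been missed.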

Other observations

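Low but recurrent values of a glial gene differed by age. Gjb6, a connexin gene of astrocytes, was seen in 6 of 8 cells of 7 months and 1 of the other 48, yet at 10 TPM or more in 1 cell of 56. The source of these values was not tested.

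Some genes not usually counted as ubiquitous were seen in all 56 cells, among them Trpm2, Unc13d, Cep89 and Lztr1, beside Cdkn1b. They were picked out after their values were seen, and the TPM table does not show where along a gene its reads lie.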
